A study of Homo sapiens with 14 samples.

Results

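The 9 genes described here, HLA-B, HLA-C, HLA-E, HLA-F, B2M, TAP1, TAP2, TAPBP and NLRC5, belong to the HLA class I antigen presentation pathway. They were picked by gene symbol and no measured value entered the rule, but earlier results of these data were known when they were chosen. They are 9 of the 60683 gene identifiers counted in each RNA-seq library. The study treated 2 cancer cell lines with inhibitors of the cell cycle and asked whether the cells became senescent, a state of lasting arrest. A549, a lung cancer line, was untreated, or received 2 µM palbociclib, 0.5 µM indisulam or both drugs for 10 days, or 0.5 µM PF-06873600 for 7 days. SUM159, a triple negative breast cancer line, was untreated or received 0.5 µM PF-06873600 for 7 days. Palbociclib inhibits CDK4 and CDK6, PF-06873600 inhibits CDK2 as well, and indisulam leads to the degradation of the splicing factor RBM39. There were 7 groups of 2 libraries, 14 in all. All groups were cultured lines without introduced alleles, and the day on which untreated cells were collected is not given in the sources used here.

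Class I molecules show peptides from inside the cell to cytotoxic T cells. The proteasome cuts proteins into peptides, the TAP1 and TAP2 transporter carries the peptides into the endoplasmic reticulum, and tapasin, the product of TAPBP, brings the transporter together with an empty class I molecule. Each molecule pairs a heavy chain, here from HLA-B, HLA-C, HLA-E or HLA-F, with beta-2 microglobulin from B2M. HLA-E is also a ligand of an inhibitory receptor on natural killer cells. NLRC5 is the transactivator of class I genes, and interferons and NF-kappaB raise their transcription. In GENCODE release 44 on GRCh38, 7 of the 9 genes lie on chromosome 6, from HLA-F at chr6:29722775-29738528 to TAPBP at chr6:33299694-33314284. B2M lies at chr15:44711358-44718851 and NLRC5 at chr16:56989485-57083531.

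Levels are given as CPM, the reads on a gene per 1000000 reads counted on all genes of that library. The libraries held 13060374 to 21149256 counts on genes, and the smallest level taken as detectable, 3 counts, lay between 0.142 and 0.23 CPM, a limit that covers counting error only. The series describes its duplicates as technical, so the p-values below measure the spread between such libraries and not between independent cultures. The 2 libraries of a group differed by more than sampling noise in every group (chi-square per degree of freedom between 1.61 and 9.57, the highest in untreated A549), and each was kept as a replicate. All epithelial markers on a list of 5 reached 1 CPM in A549, but of 4 lung lineage markers only NAPSA did, with SFTPB at 0 in every A549 library. In SUM159 the luminal breast markers ESR1 and PGR stayed below 1 CPM, while the other 2 of the 4 on that list reached it, and of the 5 epithelial markers 2 did. All 3 mesenchymal markers reached 1 CPM in both lines. Fewer cells of a kind and less RNA per cell cannot be told apart in such bulk libraries.

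In untreated A549 cells the pathway was present at very unequal levels. To compare genes with each other, CPM was divided by the length of the canonical transcript in kilobases. On this per-length scale B2M stood highest at 528 ± 49.5 (SD, n = 2), followed by HLA-E at 54.3 ± 0.82 and TAPBP at 52.8 ± 3.76. HLA-E and TAPBP did not differ beyond their spread. HLA-C followed at 41.6 ± 6.87, HLA-B at 15.0 ± 2.28 and TAP1 at 8.88 ± 0.547. HLA-F at 3.64 ± 0.179, TAP2 at 1.88 ± 0.269 and NLRC5 at 1.25 ± 0.01 per-length CPM were the lowest. With the length of all exons together in place of the canonical transcript, HLA-B and TAP1 changed places, at 4.98 and 5.03.

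Far more reads were counted on HLA-B in untreated SUM159 than in untreated A549 cells. The level of HLA-B was 25.5 and 20.5 CPM in the 2 untreated A549 libraries and 323 and 296 CPM in the 2 untreated SUM159 libraries. This is a 13.5-fold difference (log2 3.75 ± 0.10, SE; edgeR's quasi-likelihood test, Benjamini-Hochberg adjusted p = 8.69e-14). NLRC5 was 5.13-fold, TAP2 4.41-fold, TAP1 3.87-fold, HLA-C 3.13-fold and B2M 1.61-fold higher in SUM159, as was HLA-F (log2 1.14 ± 0.13). Thus 7 of the 9 genes were higher in SUM159, where 42.8% of all 16707 genes tested were, and 2 were lower, where 36.4% were. The lower genes were HLA-E (log2 -0.16 ± 0.06, adjusted p = 0.0355) and TAPBP (log2 -0.17 ± 0.07, adjusted p = 0.0351). Both lost their call without the first untreated A549 library (log2 -0.14 and -0.09), without the second untreated SUM159 library (-0.13 and -0.12), or without any 1 of the 4 libraries treated with PF-06873600 (-0.16 and -0.17). The ranking of levels differed between the lines too. Per length, HLA-B stood at 202 ± 12.5 and HLA-C at 130 ± 6.07 CPM in untreated SUM159, so the ratio of HLA-B to HLA-C was 1.55 ± 0.0239 there and 0.361 ± 0.00472 in A549. With the length of all exons the ratio was 0.836 in untreated SUM159 and 0.195 in untreated A549, so HLA-C then stood above HLA-B in both lines.

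**Figure D1:**
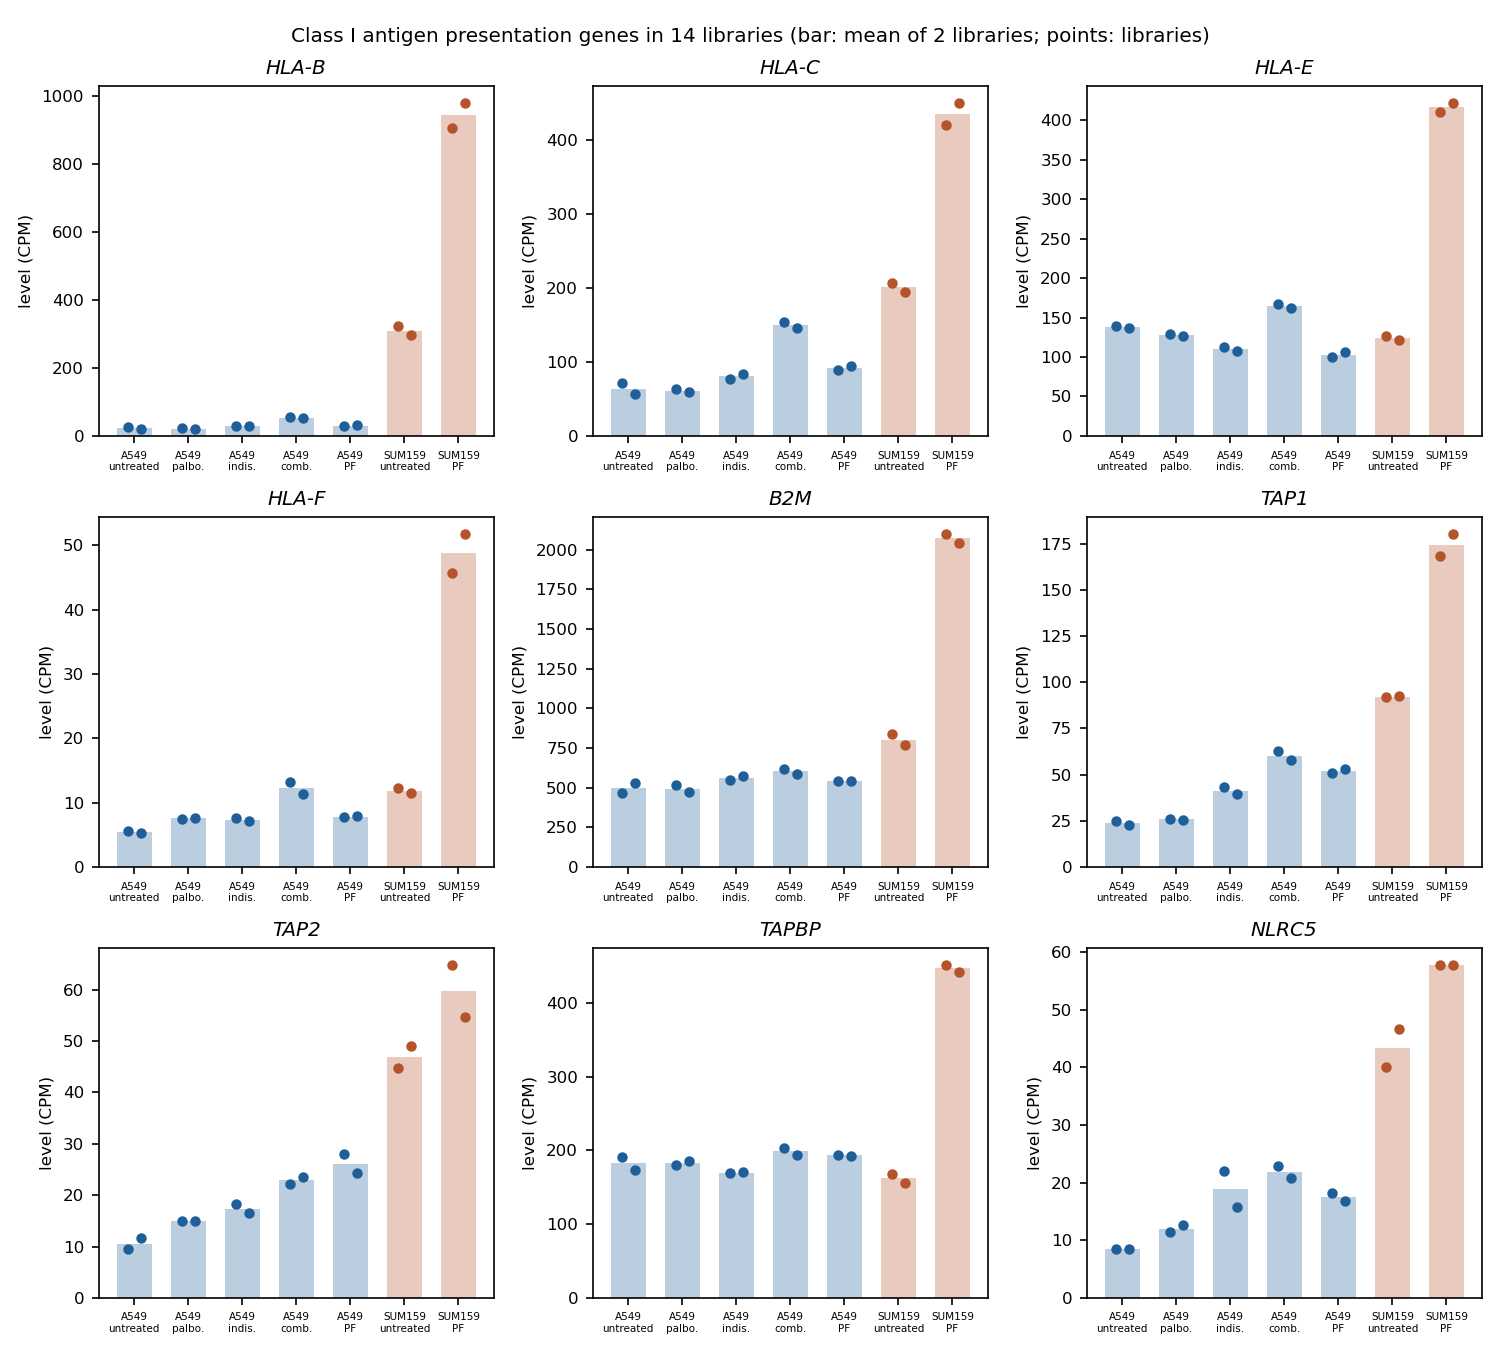
Level of each of the 9 genes in CPM (vertical axis, linear from 0, with its own range per gene) in the 7 groups (horizontal axis). Bars are means of 2 libraries and points are libraries, with A549 in blue and SUM159 in brown. SUM159 cells treated with PF-06873600 hold the highest level of all 9 genes, and HLA-B is at most 54.2 CPM in any A549 library.

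The DNA just before the transcription start of these genes is shown because it carries the short elements for which class I promoters are known. RefSeq promoters (GRCh38.p14) were at hand for 7 of the 9 genes, HLA-E and NLRC5 being named only. Capitals mark matches to 5 motifs, searched on both strands in the 250 bases before and the 50 bases after the start: the interferon response core GAAANNGAA, the GAS element TTCNNNGAA, the kappaB core GGGANTCCC, the X2 box core TGACG and the Y box ATTGG. Adjoining or overlapping matches run together. The stretches stop before exons of coding transcripts, and for TAP2 and TAPBP are 30 bases around the element. Matches outside the stretches are counted below but not shown. These are the X2 core and Y boxes of HLA-B, the Y boxes of HLA-F, the X2 core of TAP2 and the GAS element of TAP1. All are written 5′ to 3′ on the strand of the gene.
HLA-B, chr6:31357294-31357379, minus strand: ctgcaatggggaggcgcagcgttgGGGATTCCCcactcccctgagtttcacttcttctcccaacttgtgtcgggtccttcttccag
HLA-C, chr6:31272133-31272292, minus strand: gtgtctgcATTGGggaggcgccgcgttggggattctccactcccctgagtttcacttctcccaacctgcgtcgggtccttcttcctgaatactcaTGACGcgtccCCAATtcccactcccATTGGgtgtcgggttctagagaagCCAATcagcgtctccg
HLA-F, chr6:29723234-29723305, plus strand: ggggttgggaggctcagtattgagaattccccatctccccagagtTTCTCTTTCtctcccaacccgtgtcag
B2M, chr15:44711357-44711508, plus strand: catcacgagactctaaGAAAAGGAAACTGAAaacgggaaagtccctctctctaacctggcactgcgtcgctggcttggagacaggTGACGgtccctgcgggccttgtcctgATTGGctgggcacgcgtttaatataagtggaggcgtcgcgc
TAP1, chr6:32853817-32853954, minus strand: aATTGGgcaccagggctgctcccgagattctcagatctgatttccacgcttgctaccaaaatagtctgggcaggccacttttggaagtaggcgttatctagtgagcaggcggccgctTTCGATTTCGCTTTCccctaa
TAP2, chr6:32838778-32838807, minus strand: ctggggaagcGAAAGCGAAagctgcccgag
TAPBP, chr6:33314079-33314108, minus strand: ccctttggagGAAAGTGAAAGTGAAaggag

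The interferon response core was found in 5 of the 7 promoters (HLA-F, B2M, TAP1, TAP2 and TAPBP), and in 8.11% of all 35116 promoters of that length. B2M, TAP1 and TAPBP each hold it in a pair of overlapping copies. The kappaB core was found in HLA-B alone among the 7 and in 0.877% of all promoters. The place in the HLA-C stretch most like it differs by C8T, counted from 1 at the 5′ end of the element in HLA-B. The X2 box core was found in 4 of the 7 (24.6% of all promoters), the Y box in 5 (34.6%) and the GAS element in 1, a second TAP1 promoter of the table (7.66%). HLA-B and HLA-C each hold the X2 core followed by Y boxes nearer to the start, which in HLA-B lie outside the printed stretch. A match is a description of letters, and the response of the genes to treatment was not tested against it. Only exact matches were counted, so a promoter without a match to the interferon response core, as in HLA-B and HLA-C, may still hold such an element.

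Palbociclib alone left most of the pathway at the level of untreated A549 cells. NLRC5 was 8.50 and 8.40 CPM in untreated cells and 11.5 and 12.6 CPM with palbociclib, TAP2 was 9.52 and 11.7 against 15.0 and 15.0 CPM, and HLA-F was 5.57 and 5.20 against 7.50 and 7.57 CPM. The treated libraries lay above the untreated ones for each of these genes, but the share of all genes that separate in this way was not counted. They were the 3 of 9 called higher (log2 0.51 ± 0.16, 0.50 ± 0.12 and 0.48 ± 0.15; adjusted p = 0.0405, 0.0141 and 0.0359), and 0 of 9 were called lower. Over all 15780 genes tested in A549, 8.3% were higher and 7.4% lower. The median log2 fold change of the 9 genes was 0.0042 and that of all genes -0.0056. None of the 3 calls held when either palbociclib library was left out (the values were then between 0.44 and 0.57) or when only the compared groups were in the model. TAP2 also lost its call without the first untreated library (0.36), HLA-F without the second (0.43), and NLRC5 without either (0.52 and 0.51). HLA-F and NLRC5 lost it too with DESeq2 (0.49 and 0.52) and without either PF-06873600 library (0.48 and 0.51), HLA-F without a filter on low counts (0.48), and NLRC5 without either combination library (0.51). HLA-B (log2 -0.13 ± 0.11) and B2M (-0.01 ± 0.07) were not called. Nor was TAP1, though its palbociclib libraries (26.1 and 25.6 CPM) also lay above the untreated ones (24.9 and 22.8 CPM).

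Indisulam alone gave a split pattern, with more of the regulator and transporter and less HLA-E. NLRC5 went from 8.50 and 8.40 CPM in untreated cells to 22.0 and 15.8 CPM with indisulam, a 2.24-fold difference (log2 1.16 ± 0.15, adjusted p = 2.19e-05). TAP1 went from 24.9 and 22.8 to 43.1 and 39.4 CPM (log2 0.79 ± 0.08) and TAP2 to 18.2 and 16.4 CPM (log2 0.71 ± 0.12). No indisulam library of these 3 genes overlapped an untreated one. The same held for B2M, which was not called, at 546 and 573 CPM against 465 and 531 CPM. How many of all genes separate in this way was not counted. Smaller increases were called for HLA-F (log2 0.45 ± 0.15), HLA-B (0.34 ± 0.10) and HLA-C (0.33 ± 0.09). HLA-E fell from 140 and 137 CPM to 113 and 107 CPM (log2 -0.33 ± 0.06, adjusted p = 0.00035). In all, 6 of 9 genes were higher and 1 lower, where 28% of all genes were higher and 17.5% lower. The balance of all calls depends on the scaling of libraries: scaled by totals, 61.6% of the genes called were higher, and scaled by TMM factors, 50.4%. With only the compared groups in the model, 3 genes were called higher, and HLA-B, HLA-C and HLA-F were not. The call of HLA-B was also lost with TMM factors (log2 0.26, adjusted p = 0.0533), with DESeq2 (0.27, adjusted p = 0.125), without the second untreated library (0.19) and without the first indisulam library (0.30). HLA-C lost its call without the second untreated library (0.18) or the second indisulam library (0.28) and was 0.51 without the first untreated library. HLA-F lost its call with DESeq2 (0.38, adjusted p = 0.217), without the second untreated library (0.40) or without either indisulam library (0.42 and 0.48).

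With both drugs, the classical heavy chains rose together with the transporter and the regulator. HLA-B was 25.5 and 20.5 CPM in untreated cells and 54.2 and 53.5 CPM with the combination, which is 2.34-fold (log2 1.23 ± 0.10, adjusted p = 4.65e-08). HLA-C went from 71.6 and 56.6 to 154 and 146 CPM, also 2.34-fold (log2 1.23 ± 0.09). The combination libraries of both genes lay far above every other A549 library, and the share of all genes for which this holds was not counted. TAP1 rose from 24.9 and 22.8 to 62.6 and 57.7 CPM (2.52-fold), TAP2 to 22.1 and 23.6 CPM (2.16-fold), NLRC5 to 22.9 and 20.7 CPM (2.58-fold) and HLA-F to 13.2 and 11.3 CPM (2.26-fold). B2M and HLA-E rose less, by 1.21-fold (log2 0.27 ± 0.07, adjusted p = 0.00256) and 1.19-fold (log2 0.25 ± 0.06, adjusted p = 0.0016). Without the first untreated library the value of B2M was 0.18, and with TMM factors that of HLA-E was 0.16, with both calls kept. TAPBP, at 204 and 194 CPM against 191 and 173 CPM, was not called (log2 0.13 ± 0.06, adjusted p = 0.0804), but was called without the first untreated library (0.20). Thus 8 of 9 genes were higher and 0 lower, where 35.1% of all genes were higher and 30% lower. The median log2 fold change was 1.18 over the 9 genes and 0.05 over all genes. No gene of the 9 was called lower under any alternative, while the share of higher genes among all calls was 53.9% here and 47.6% after TMM scaling.

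**Figure D2:**
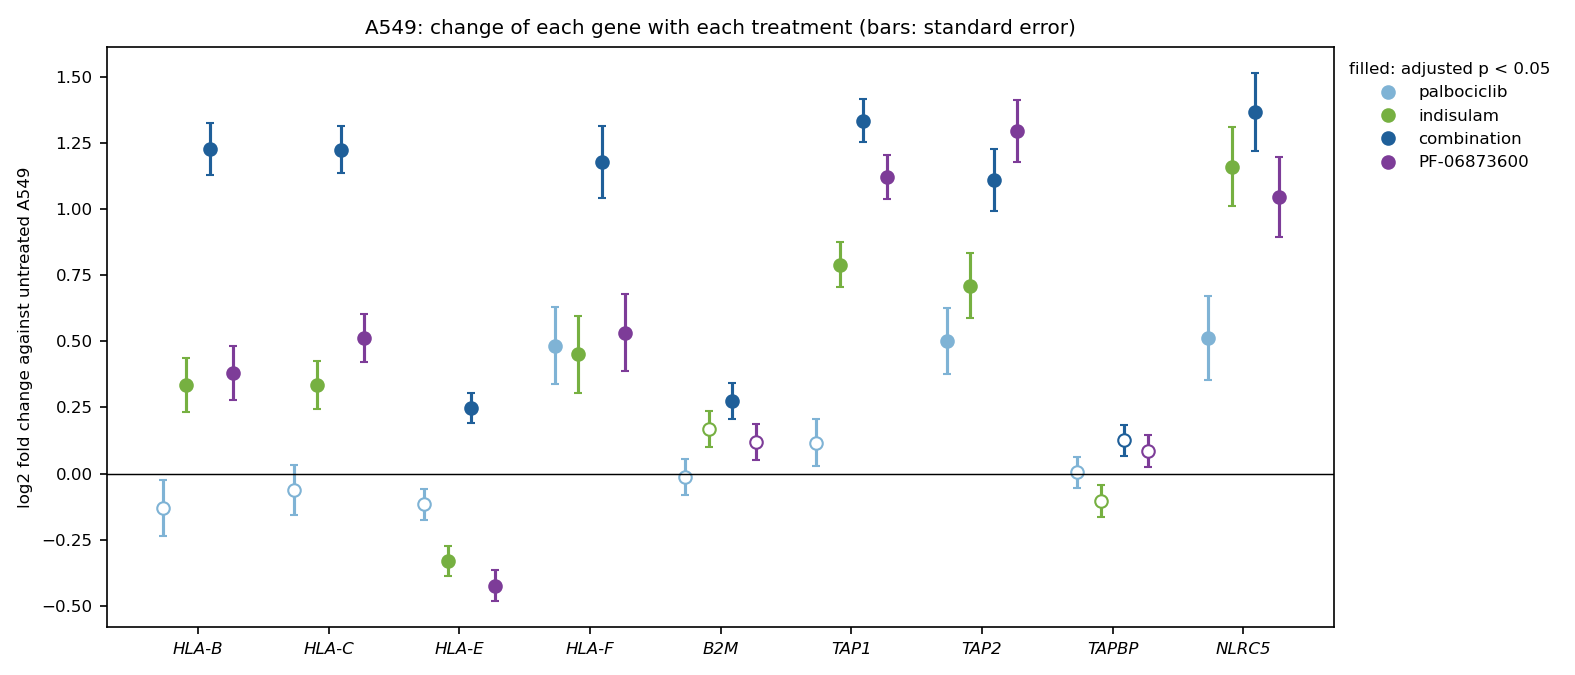
Log2 fold change of each gene against untreated A549 cells (vertical axis) for 4 treatments, with standard errors as bars and filled circles where the adjusted p was under 0.05. HLA-B and HLA-C are near 1.23 with the combination and at or below 0.51 with every other treatment, while HLA-E is below 0 with palbociclib, indisulam and PF-06873600 and above 0 with the combination only.

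Set against each single drug, the combination was higher for most of the pathway. Against palbociclib alone 8 of 9 genes were higher and 0 lower (33.5% and 26.9% of all genes), led by HLA-B (log2 1.36 ± 0.10), HLA-C (1.29 ± 0.09) and TAP1 (1.22 ± 0.08), with TAPBP not called. Against indisulam alone 7 of 9 were higher and 0 lower (22% and 23.9% of all genes). HLA-B and HLA-C (both log2 0.89 ± 0.09), HLA-F (0.73 ± 0.13), HLA-E (0.58 ± 0.06) and TAP1 (0.54 ± 0.08) differed most. TAP2 (0.40 ± 0.11) lost its call without the second indisulam library (0.33) or the second combination library (0.35), and TAPBP (0.23 ± 0.06) without the first combination library (0.19). NLRC5, at 0.21 ± 0.13, was not called. Without the first indisulam library it was 0.46 and called, and without the second it was -0.02. The comparisons with untreated, palbociclib and indisulam cells share the combination libraries and are therefore not independent of each other.

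An interaction term tested whether the combination differed from the sum of the 2 single-drug changes on the log2 scale. The single drugs together would add 0.21 to HLA-B and 0.27 to HLA-C, against 1.23 observed for each. The excess was 1.02 ± 0.14 for HLA-B (adjusted p = 0.000103) and 0.95 ± 0.13 for HLA-C (adjusted p = 7.68e-05). For HLA-E the sum was -0.45 and the observed change 0.25, an excess of 0.69 ± 0.08 (adjusted p = 2.29e-05). TAP1 exceeded its sum by 0.43 ± 0.12 (adjusted p = 0.0153), but lost this call without the second palbociclib library (0.41), the second indisulam library (0.37) or the first combination library (0.37). NLRC5 (-0.31 ± 0.21), TAP2 (-0.10 ± 0.17), HLA-F (0.24 ± 0.20), B2M (0.12 ± 0.10) and TAPBP (0.22 ± 0.09) were not called. With 1 library left out, NLRC5 was called lower than its sum without the second indisulam library (-0.53), B2M higher without the first untreated library (0.21) and TAPBP higher without the second (0.29). So 4 of 9 genes were higher than the sum and 0 lower, where 10.7% of all genes were higher and 14.5% lower.

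**Figure D3:**
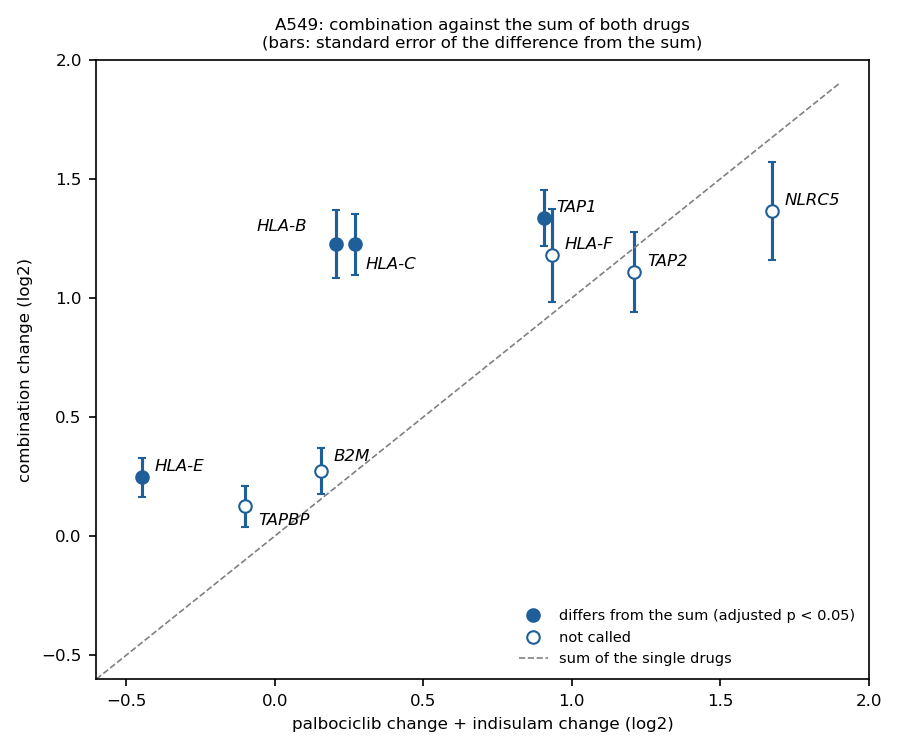
Change with the combination (vertical axis) against the sum of the changes with palbociclib and indisulam alone (horizontal axis), both as log2 fold change against untreated A549 cells. The dashed line marks equality, bars are the standard error of the difference from the sum, and filled points differ from it. HLA-B and HLA-C lie about 1 above the line and NLRC5 and TAP2 lie below it without being called.

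The unequal rise changed the balance between heavy chains and their light chain in A549. The per-length level of B2M divided by the sum over HLA-B, HLA-C, HLA-E and HLA-F was 4.65 ± 0.844 (SD, n = 2) in untreated cells, 4.81 ± 0.152 with palbociclib, 4.97 ± 0.152 with indisulam and 4.61 ± 0.197 with PF-06873600. With the combination it was 3.11 ± 0.00983, below both libraries of every other A549 group. The ratio used canonical transcript lengths, and with the length of all exons it was 2.03 ± 0.336 in untreated cells and 1.48 ± 0.00583 with the combination. In SUM159 the ratio of B2M to these 4 heavy chains was 2.19 ± 0.0198 without treatment and 2.02 ± 0.141 with PF-06873600.

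PF-06873600 in A549 gave a pattern with the transporter in front and the heavy chains behind. TAP2 went from 9.52 and 11.7 CPM in untreated cells to 28.0 and 24.3 CPM (2.46-fold, log2 1.30 ± 0.12, adjusted p = 3.34e-07), TAP1 from 24.9 and 22.8 to 50.6 and 52.9 CPM (2.17-fold), and NLRC5 from 8.50 and 8.40 to 18.2 and 16.8 CPM (2.07-fold). HLA-F (log2 0.53 ± 0.15), HLA-C (0.51 ± 0.09) and HLA-B (0.38 ± 0.10) rose less. HLA-E fell to 100 and 106 CPM from 140 and 137 CPM (log2 -0.42 ± 0.06, adjusted p = 2.36e-05), with no overlap between groups. In all, 6 of 9 genes were higher and 1 lower, where 28.5% of all genes were higher and 27.8% lower. B2M (0.12 ± 0.07) and TAPBP (0.08 ± 0.06) were not called, though their treated and untreated libraries did not overlap either. The share of all genes without such overlap was not counted, so it lends these values no support. HLA-B lost its call without the second untreated library (0.23) or the second PF-06873600 library (0.33). B2M was called without the second untreated library (0.22), and TAPBP without the first (0.16). Dose and time differ from those of the other drugs, so no comparison between drugs was made beyond the values given.

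In SUM159 cells treated with PF-06873600 all 9 genes rose. HLA-F went from 12.2 and 11.5 CPM in untreated cells to 45.7 and 51.8 CPM, 4.12-fold (log2 2.04 ± 0.09, adjusted p = 5.32e-11). HLA-E went from 127 and 122 to 411 and 423 CPM, 3.35-fold (log2 1.74 ± 0.06, adjusted p = 1.91e-12). HLA-B, already the heavy chain with the most reads, went from 323 and 296 to 905 and 980 CPM, 3.04-fold. For each of these genes both treated libraries lay well above both untreated ones, and the share of all genes for which this holds was not counted. TAPBP rose from 168 and 156 to 452 and 442 CPM (2.76-fold), B2M from 837 and 767 to 2102 and 2044 CPM (2.59-fold), HLA-C from 207 and 194 to 420 and 451 CPM (2.17-fold) and TAP1 from 91.9 and 92.6 to 169 and 181 CPM (1.89-fold). NLRC5 and TAP2 rose least, from 40.0 and 46.7 to 57.8 and 57.7 CPM (log2 0.42 ± 0.07, adjusted p = 0.000142) and from 44.7 and 49.0 to 64.9 and 54.7 CPM (log2 0.35 ± 0.08, adjusted p = 0.00137). Without the first treated library the value of TAP2 was 0.22, with its call kept. Over all 15055 genes tested in SUM159, 38.1% were higher and 35.6% lower, so that calls in either direction were common in this comparison. The median log2 fold change was 1.37 over the 9 genes and 0.02 over all genes. Leaving out any 1 of the 4 libraries kept the count at 9.

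Markers of other cells moved with this change. The summed level of 5 leukocyte markers was 10.1 to 10.8 CPM in untreated and 21.8 to 23.7 CPM in treated SUM159 libraries. Most of it was PTPRC, with 17.9 to 20.3 CPM after treatment, and CD14 with 3.27 to 3.88 CPM, while CD3E stayed at 0 counts and CD79A at 1 count at most. The summed level of 3 endothelial markers was 11.04 to 11.6 CPM without and 26.9 to 29.0 CPM with the drug, nearly all of it PECAM1, with CDH5 at 0 counts in untreated libraries. Their part in the class I result was not tested. In A549 the leukocyte sum was 4.47 to 5.30 CPM in untreated cells, 11.1 to 12.2 CPM with indisulam and 7.02 to 7.23 CPM with the combination, with CD3E at 0 in each. The endothelial sum in A549 lay between 0.536 and 1.60 CPM.

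The response to PF-06873600 differed between the lines for 8 of the 9 genes. In a model of both lines, with 16707 genes tested, the log2 change was larger in SUM159 for HLA-E (difference 2.17 ± 0.09, adjusted p = 2.52e-10), HLA-F (1.51 ± 0.18), TAPBP (1.38 ± 0.10), B2M (1.25 ± 0.11), HLA-B (1.22 ± 0.13) and HLA-C (0.60 ± 0.13). These were the heavy chains, the light chain and tapasin. It was smaller in SUM159 for TAP2 (-0.95 ± 0.17, adjusted p = 0.000256) and NLRC5 (-0.63 ± 0.15, adjusted p = 0.00222). TAP1 was not called (-0.20 ± 0.10), except without the first untreated A549 library (-0.26). Of all genes, 25.6% had the larger and 27.2% the smaller log2 change in SUM159. HLA-E was the gene whose direction differed, since it fell in A549 and rose in SUM159. The lines differ in tissue, genotype and medium as well as in response, and these cannot be told apart.

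**Figure D4:**
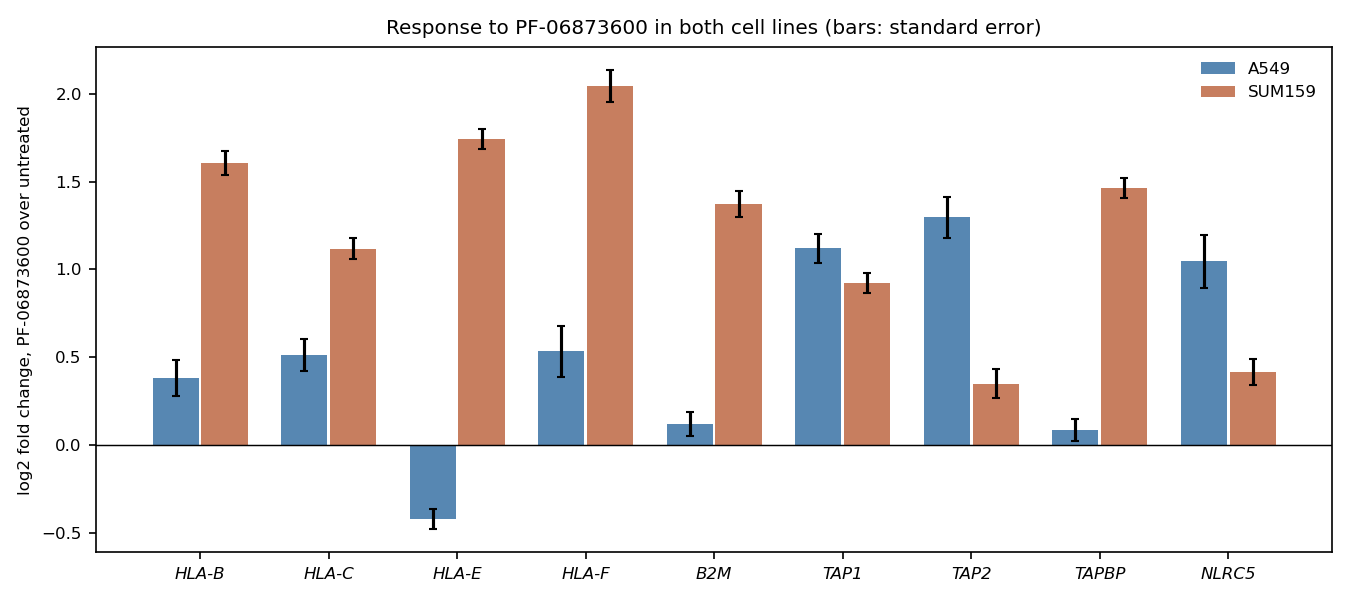
Log2 fold change with PF-06873600 over untreated cells of the same line (vertical axis, bars from 0, with standard errors) for the 9 genes in A549 and SUM159. HLA-E is at -0.42 in A549 and 1.74 in SUM159, and TAP2 at 1.30 and 0.35.

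In treated SUM159 cells the per-length order was B2M at 2198 ± 43.3, HLA-B at 613 ± 34.6, HLA-C at 282 ± 14.05, HLA-E at 163 ± 3.31, TAPBP at 130 ± 2.00, TAP1 at 65.0 ± 3.14, HLA-F at 33.0 ± 2.92, TAP2 at 10.6 ± 1.28 and NLRC5 at 8.52 ± 0.00847. Neighbours in this order were apart by more than their spread. HLA-E stood below HLA-B and HLA-C, as it already did in untreated SUM159 cells, at 48.8 ± 1.42. The ratio of HLA-B to HLA-C rose from 1.55 ± 0.0239 to 2.17 ± 0.0145 in SUM159, whereas in A549 it stayed between 0.329 and 0.362 in all 5 group means. With the length of all exons it rose in SUM159 from 0.836, with HLA-C the higher, to 1.17.

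Genes that supply and load peptides moved only partly with the 9 genes. Lists of further genes of the pathway were used as a description, and their counts are to be read against the shares of all genes called: 38.1% higher and 35.6% lower in SUM159 with PF-06873600, and in A549 35.1% and 30% with the combination, 28% and 17.5% with indisulam, 28.5% and 27.8% with PF-06873600, and 8.3% and 7.4% with palbociclib. Of 11 genes for peptide supply and loading, 10 rose and 0 fell in SUM159 with PF-06873600. They included the immunoproteasome subunits PSMB10 (log2 1.25), PSMB9 (0.92) and PSMB8 (0.36), the trimming aminopeptidase ERAP1 (1.03) and the peptide editor TAPBPL (1.59). With the combination in A549, 7 rose and 4 fell, with PSMB9 at 1.33, TAPBPL at 0.67, PSMB8 at 0.59, PSMB10 at 0.41 and ERAP1 at 0.32. The call of PSMB10 was lost with TMM factors (0.32), with DESeq2 (0.37), without the first untreated library (0.37) and without either combination library (0.38 and 0.43). Indisulam gave 3 higher and 3 lower (PSMB9 1.04, PSMB8 0.51), PF-06873600 in A549 gave 5 higher and 3 lower (PSMB8 0.76, PSMB9 0.75, TAPBPL 0.61, ERAP1 -0.40), and palbociclib 1 higher and 2 lower. With palbociclib PSMB9 (0.53) and ERAP1 (-0.30) lost their calls with DESeq2 and with only the compared groups in the model, PSMB9 also without the second palbociclib library (0.45), and ERAP1 without the second untreated library (-0.24) or either palbociclib library (-0.29 and -0.31). The constitutive proteasome subunits that the immunoproteasome subunits replace, PSMB5, PSMB6 and PSMB7, were all lower in SUM159 with PF-06873600 (PSMB6 -0.63) and in A549 with the combination (PSMB7 -0.46). In A549, 2 were lower with indisulam and 1 with palbociclib. Of these, PSMB7 with indisulam (-0.21) lost its call with only the compared groups in the model, without the second untreated library (-0.14) and without any 1 library treated with indisulam, the combination or PF-06873600 (-0.21 to -0.22). Still in A549, with PF-06873600 PSMB5 was higher (0.30) and 1 was lower.

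Among 12 transcription factors of class I promoters, IRF1 and RFX5 were called higher with every treatment, the IRF1 call with palbociclib and the RFX5 call with indisulam being lost with only the compared groups in the model. IRF1, an interferon-induced activator, was 24.8 and 23.6 CPM in untreated A549, 31.5 and 31.7 CPM with palbociclib, 51.9 and 48.7 CPM with indisulam, 65.3 and 66.2 CPM with the combination, and 51.3 and 51.7 CPM with PF-06873600. In SUM159 it went from 27.7 and 27.7 to 73.1 and 71.9 CPM (log2 1.39). RFX5, a subunit of the complex through which NLRC5 acts, rose by log2 0.49 with palbociclib, 0.29 with indisulam, 0.33 with the combination and 0.48 with PF-06873600 in A549, and by 1.04 in SUM159. Its indisulam call was also lost with DESeq2 (0.22) and without the first indisulam library (0.17). The list as a whole had 3 higher and 4 lower with the combination, 3 higher and 4 lower with PF-06873600 in A549, 3 higher and 6 lower with PF-06873600 in SUM159, 3 higher and 0 lower with indisulam, and 2 higher and 0 lower with palbociclib. With 35.1% of all genes higher and 30% lower with the combination, 3 and 4 of 12 are near the share of all genes.

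Of 10 genes for interferon receptors and signalling, 6 rose and 0 fell with the combination (35.1% and 30% of all genes), led by the kinase JAK1 (log2 1.59), and 8 rose and 0 fell in SUM159 with PF-06873600 (38.1% and 35.6% of all genes), led by the receptor chain IFNGR1 (1.64). Indisulam gave 5 higher and 0 lower (JAK2 1.11), PF-06873600 in A549 5 higher and 1 lower, and palbociclib 3 higher and 1 lower. The lower gene with PF-06873600 was IRF9 (-1.12), at 2.45 and 0.867 CPM in untreated and 0.766 and 0.742 CPM in treated cells. Its call was lost with DESeq2, without the first untreated library (-0.20) and without any other A549 library except the second untreated one. Transcripts of the 5 interferon ligands IFNB1, IFNG, IFNL1, IFNL2 and IFNL3 were at 1 count or less in each library and were not tested. At this depth their presence was not detectable.

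**Figure D5:**
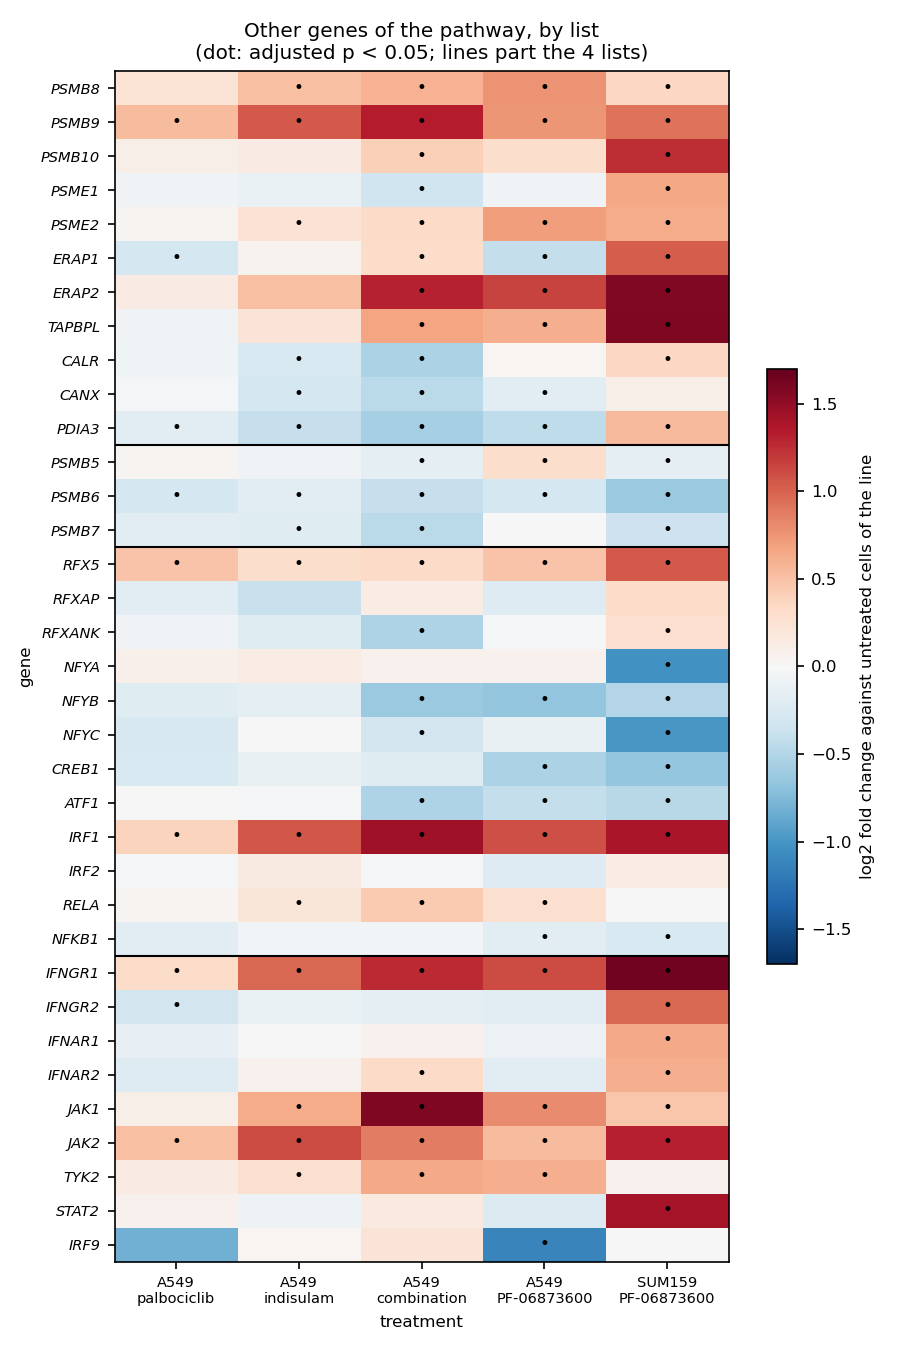
Log2 fold change against untreated cells of the same line (colour, from blue for lower to red for higher) of 35 further genes of the pathway (rows, in 4 lists parted by lines) under 5 treatments (columns), with a dot where the adjusted p was under 0.05. Of the genes on these lists 1 is not shown. IRF1, RFX5, PSMB9 and IFNGR1 carry a dot in every column, and the second list, the constitutive proteasome, is mostly blue.

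Class II genes, which present peptides to helper T cells and have CIITA as their activator, appeared in SUM159 with PF-06873600. Several of the 12 listed, HLA-DRA among them, were at 0 in untreated cells and passed the filter on low counts through the treated libraries alone, so no count of calls is given for this list. CIITA went from 0.603 and 0.438 CPM to 8.59 and 7.71 CPM. HLA-DRA, at 0 counts in both untreated libraries, reached 10.8 and 10.8 CPM, at least 58.6-fold above the floor of 3 counts per library. CD74, the invariant chain, chosen after its values were seen, went from 0.603 and 0.814 to 86.4 and 89.9 CPM. In A549 CIITA was at most 0.309 CPM in any library. HLA-DOA, at 0 in untreated A549, averaged 1.20 CPM with the combination. This was at least 5.97-fold above the floor of 3 counts in untreated A549 libraries, against 4.66-fold with PF-06873600 and 4.19-fold with indisulam. HLA-DMB, also chosen after its values were seen, was 118 and 126 CPM in untreated A549, 48.5 and 46.1 CPM with palbociclib, 24.7 and 23.0 CPM with indisulam, 3.98 and 4.02 CPM with PF-06873600 and 2.198 and 1.99 CPM with the combination.

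Of 5 class I-like genes, 4 rose and 0 fell in SUM159 with PF-06873600 (38.1% and 35.6% of all genes), led by MR1, which presents vitamin metabolites (log2 2.57). With the combination in A549, 4 were tested, 1 was higher and 2 were lower (35.1% and 30% of all genes), led by HFE, a regulator of iron uptake (log2 -1.66). Indisulam and PF-06873600 each gave 1 higher and 2 lower there, with HFE at -0.93 and -1.14, and palbociclib gave 0 higher and 1 lower, FCGRT at -0.38. That call was lost with DESeq2, with only the compared groups in the model, and without the first untreated library (-0.24) or either palbociclib library (-0.37 and -0.38).

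Across the 10 A549 libraries, the gene whose log2 CPM was most like that of HLA-B among 9616 genes was HLA-C (Pearson's r = 0.989), followed by TP53INP2 (0.988). For TAP1 these were AOX1 (0.995), TRIML2 (0.994) and KRT7 (0.993), and for B2M GTF2H5 (0.969) and, with a lower value, DOCK1 (0.953). HLA-E had r = 0.48 with HLA-B and 0.0082 with TAP1. These values describe 10 libraries that share 5 treatments, so libraries of the same group count as similar points.

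Counts of some of these genes carry limits from shared sequence. HLA-F shares 535 exon bases with HLA-F-AS1 and TAP1 shares 672 with PSMB8-AS1, both on the other strand, and these antisense genes were at 0.661 to 4.21 and 1.59 to 4.16 CPM. The use of strand in counting is not given in the sources used here, so reads there cannot be told apart. On the same strand, TAP2 shares 2023 exon bases with ENSG00000250264, at most 0.0603 CPM, and HLA-B shares 1421 with DHFRP2, at 0 CPM. Reads there fit both genes whatever the strand, which bears on the per-length levels of TAP2 and HLA-B. Heavy chain genes resemble each other, and 8.59% to 10.9% of reads were set aside for low mapping quality and 3.02% to 3.47% as ambiguous between genes. How the reads set aside divide among the 9 genes is not shown by the files. Reads of both lines were aligned to GRCh38. Whether sequence differences between the lines affect the counts of HLA-B and HLA-C was not tested.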

How the data were processed

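RNA from 14 libraries (7 groups of 2) was sequenced by the authors from strand-specific libraries. The submitters' processing notes name HISAT2 2.2.1, HTSeq and GRCh38. Per the labels and files, the values deposited are raw counts, whole numbers of reads per gene without normalization, with replicates kept separate. Each file also holds 9 summary lines, which were left out of totals and tests. Symbols and coordinates came from GENCODE release 44 for 60370 of 60683 identifiers, and all 9 genes matched.

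Counts were scaled by the total on genes, after the relative total size factor of the paper's methods. Genes kept by filterByExpr were tested with edgeR 4.0.16 (limma 3.58.1, R 4.3.3), by its quasi-likelihood F test, with p-values adjusted after Benjamini and Hochberg over all genes tested and a threshold of 0.05, in 3 models: 10 A549 libraries (15780 genes), 4 SUM159 libraries (15055) and 8 untreated or PF-06873600 libraries of both lines (16707). All 9 genes passed the filter in each. The standard error is the absolute log2 fold change over the square root of F. Interaction terms tested the combination against the sum of the single drugs and the difference between lines. An exact permutation test of 2 against 2 cannot go below p = 0.33. Molecular identifiers are not mentioned in the sources used here.

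The 9 genes, the further lists and the motifs were chosen with earlier results of these data known. Further pathway genes are named by a rule: PSMB8, PSMB9, PSMB10, ERAP1, TAPBPL, IRF1, RFX5 and CIITA where called, and the gene of each list with the largest called change; some are given only as counts, and some items are not reported here. Likeness was taken on log2 CPM (prior count 2) over genes averaging at least 10 CPM in A549. Marker lists were epithelial, mesenchymal, lung lineage, breast luminal, leukocyte and endothelial. Alternatives were TMM factors, DESeq2 1.42.0, no filter, a floor of 50 on the mean count, a model of only the compared groups, the replicate number as a block and each library left out. The model was tested on simulated counts, where among 14908 simulated A549 genes 66% of 1.5-fold and 86% of 2-fold changes were called and 6.56% of calls were false, and among 14024 simulated SUM159 genes 64%, 74% and 3.59%. The simulated counts had the same spread for every gene and few changed genes, so these rates do not measure performance on the data. Tables and plots were made in Python 3.11.15 with pandas 2.3.3, numpy 2.4.6, matplotlib 3.10.9 and scipy 1.17.1.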

Additional observations from a re-analysis of the deposited data

Results flagged for a closer look

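The response to PF-06873600 differed between SUM159 and A549, by a test of the difference itself, for 8 of the 9 genes. Such differences were common, since 25.6% of all 16707 genes tested had a larger and 27.2% a smaller log2 change in SUM159. As log2 change in SUM159 minus that in A549 the differences were 2.17 for HLA-E, 1.51 for HLA-F, 1.38 for TAPBP, 1.25 for B2M, 1.22 for HLA-B and 0.60 for HLA-C, and -0.95 for TAP2 and -0.63 for NLRC5. Groups of 2 libraries are too small for a test of single outlying libraries.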

How the results depend on the processing

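Of 827 values of single genes recomputed under another setting, 794 kept their direction and side of the threshold, 30 lost their call, 3 gained one and 0 reversed. With 1 library left out, 1181 of 1272 did so, 70 lost their call, 13 gained one and 8 reversed, and all reversals were of genes not called. The count of genes called higher with palbociclib, 3, was 1 with DESeq2, 0 with only the compared groups and 0 to 3 with 1 library left out, and the count called lower, 0, was 0 to 1. With indisulam, 6 higher became 3 with only the compared groups, and 1 lower became 2 with TMM factors and 1 to 2 with 1 library left out. Below the sum of both drugs the count of 0 was 0 to 1, and in untreated SUM159 against A549 the 2 lower genes became 1 without a filter, 0 with the replicate number as a block and 0 to 2 with 1 library left out. Fewer libraries leave fewer degrees of freedom, and otherwise the cause was not tested. Log2 changes that crossed 0 with 1 library left out ran, for palbociclib, from -0.28 to 0.032 for HLA-B, -0.22 to 0.12 for HLA-C, -0.11 to 0.086 for B2M and -0.066 to 0.079 for TAPBP. For NLRC5 in the combination against indisulam they ran from -0.017 to 0.46, and for TAP2 beyond the sum from -0.26 to 0.038. With DESeq2, HLA-E and TAPBP in untreated SUM159 against A549 were -0.27 and -0.28. Same-numbered libraries did not deviate together throughout. The correlation of replicate differences was 0.238 between untreated and indisulam A549, 0.116 between untreated and combination A549 and 0.082 between untreated and treated SUM159, but -0.270 and -0.271 for palbociclib with untreated and indisulam A549, so the labels' numbers were not taken to pair the libraries. The block left the count with palbociclib at 3, also with its numbers crossed, a setting chosen after the data were seen. Duplicates that are technical, 2 to a group, limit every p given.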
